A study of Mus musculus with 48 samples.

Results

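Regulatory T cells (Tregs) of mice given the 3x IL-2 mutein were compared with Tregs of mice given PBS, both with an isotype control antibody. The libraries were chosen by their sample labels alone: all Treg libraries labelled isotype and IL2 (3x) against all labelled isotype and PBS, 4 against 4, which is 8 of the 48 libraries of the series. WT IL-2 is human IL-2 fused to the Fc part of human IgG1, and 3x carries 3 substitutions in it (D20A, V91K and M104V, each given as the original residue, its position in IL-2 and the new residue) that lower its potency at the IL-2 receptor. All 8 animals were female C57BL/6 mice, an inbred laboratory strain, 8 to 12 weeks old. Each received 2 intraperitoneal doses of 500 µg of isotype antibody on days −1 and 0 and 1 subcutaneous injection on day 0, of PBS or of 25 µg of 3x. Spleens were taken on day 4, CD25-positive CD4 T cells were selected with magnetic beads, and each mouse gave 1 library. The model is therefore a single dose of a human protein in healthy mice, read once, in cells that were selected by the product of one of the measured genes (CD25, encoded by Il2ra). Isotype groups of 4 libraries from mice given WT IL-2 or H16R, a second mutein with a single substitution, and the 3x and PBS groups of 4 mice given an antibody that blocks MHC class II in place of the isotype antibody, serve below only to show where the response to 3x differs. Of the 4 WT IL-2 libraries 2 carry the same number in their labels, so they may not come from separate mice.

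IL-2 is the growth and survival cytokine of Tregs. It binds a receptor built of CD25 (Il2ra), CD122 (Il2rb) and the common gamma chain (Il2rg), and signals through the kinases JAK1 and JAK3 to the transcription factor STAT5, which switches on the Treg factor Foxp3, the receptor's own alpha chain and feedback inhibitors of the SOCS family. Tregs carry CD25 at all times, so a weakened IL-2 acts on them ahead of other lymphocytes, and stimulated Tregs divide and turn from resting, recirculating cells into effector cells that hold granzymes, IL-10 and receptors for inflamed tissue.

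Values are CPM, read counts scaled to a common library total after TMM scaling, unless FPKM, which also divides by transcript length, is named. Log2 fold changes are 3x over PBS, with a standard error (SE), and calls are edgeR quasi-likelihood tests with Benjamini-Hochberg adjustment over all genes and a threshold of 0.1. Where 4 values are listed they are replicates 1 to 4 in that order. The PBS libraries held 18.28 to 34.58 M expected counts and the 3x libraries 38.19 to 49.91 M, so a gene at 1 CPM rests on 18.28 counts or more. Foxp3 ranged from 713.5 to 786.1 CPM in the PBS Treg libraries and from 53.33 to 58.99 CPM in 2 libraries of conventional CD4 T cells from PBS mice, on a scale common to the 48 libraries, so the Treg label held in these samples. Of 12392 protein-coding genes tested, 7887 (63.6%) passed the threshold, 3880 (31.3%) higher and 4007 (32.3%) lower with 3x. The median log2 fold change over all tested genes was −0.008, the median of the genes that rose was 0.31, and that of the genes that fell was −0.48. The 4 PBS and 4 3x libraries did not overlap for 5744 genes (46.4%), with 3x above PBS in 23.4% and below in 23% of all genes. A rise of at least 1 on the log2 scale was seen in 334 genes and an equal fall in 1056.

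Transcripts of other blood cells were lower with 3x, and their values come before the falls reported below. The sum of 5 plasma cell markers was 1800, 1820, 1730 and 1480 CPM with PBS and 87.9, 131, 183 and 84.9 CPM with 3x, and all 5 fell. The sum of 13 B cell markers was 997 CPM in PBS replicate 1, 168 to 218 CPM in the other 3 PBS libraries and 42.1 to 57.6 CPM with 3x. All 12 B cell markers tested fell, as did all 7 dendritic cell markers (25.4 to 52.7 against 7.65 to 10.4 CPM), all 6 MHC class II genes (774 to 2490 against 174 to 227 CPM) and all 6 neutrophil markers tested (4.36 to 46.8 against 0.185 to 0.639 CPM). Of 10 macrophage and monocyte markers tested, 9 fell and Itgam rose (3.22 to 8.91 CPM in PBS and 11.3 to 18.1 in 3x), and the list summed to 31.3 to 166 against 23.8 to 29.1 CPM. Of 5 NK cell markers, 4 fell (29.1 to 44 against 11.7 to 20.1 CPM). PBS replicate 1 was the highest library for the B cell, macrophage, dendritic cell, MHC class II, neutrophil, CD8 T cell, erythroid and platelet sums. The sums of CD8 T cell markers (6.23 to 15.9 against 9.61 to 11.3 CPM) and of the 4 platelet markers (2.38 to 3.37 against 2.39 to 2.85 CPM) overlapped between the groups. Of the CD8 markers, Cd8a fell (0.889 to 5.74 against 0.349 to 0.729 CPM) and Cd8b1 did not pass. The 7 erythroid markers summed to 1.16 to 4.18 CPM with PBS and 0.96 to 1.42 CPM with 3x, 1 of them at 0 in all 8 libraries. In the opposite direction, 5 T cell markers of 6 and all 5 Treg markers rose, from 2270 to 2470 CPM to 2970 to 3120 CPM and from 2630 to 3150 CPM to 4080 to 4280 CPM. A set of 8 immediate early and heat shock genes, which respond to stimulation and to stress, summed to 8480 to 9630 CPM with PBS and 4650 to 6220 CPM with 3x, and 6 of them fell. In these bulk samples, fewer cells of a type and less RNA per cell cannot be told apart, and the part of these markers in the results that follow was not tested beyond the values given.

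**Figure D1:**
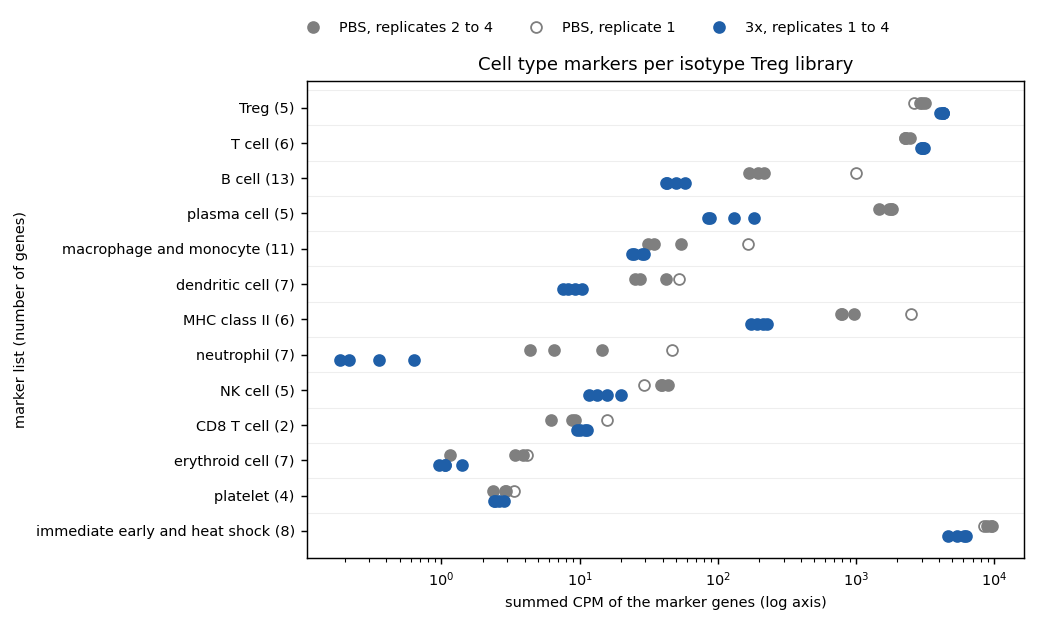
Summed CPM of marker genes of each cell type in the 4 PBS (grey) and 4 3x (blue) libraries, on a log axis. Each point is 1 library, and open points mark PBS replicate 1; plasma cell markers sit at 1480 to 1820 CPM with PBS and at 84.9 to 183 CPM with 3x, while Treg and T cell markers are higher in every 3x library than in any PBS library.

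Every chain of the receptor rose. Il2ra stood at 344, 369, 360.2 and 382 CPM in the PBS libraries and 761, 556, 591 and 649.6 CPM in the 3x libraries (log2 fold change 0.81, SE 0.09, edgeR adjusted p = 3.83e-08). The beta chain gene Il2rb, whose product carries the signal into the cell together with the gamma chain, stood at 870.2, 833, 908 and 859 CPM in the PBS libraries and 1446, 1080, 1139 and 1234 CPM in the 3x libraries (log2 fold change 0.50). Il2rg stood at 506, 515, 553 and 515 CPM in the PBS libraries and 615, 619, 646 and 623 CPM in the 3x libraries, a log2 fold change of 0.26. For each chain the lowest 3x library lay above the highest PBS library, and 3x replicate 1 was the highest for Il2ra and Il2rb. Per length, the group means were 94.4 and 152 FPKM for Il2ra with PBS and 3x, 232 and 305 FPKM for Il2rb and 316 and 364 FPKM for Il2rg, so Il2rg was the most abundant chain transcript per length and Il2ra the least in both groups.

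Downstream of the receptor the changes were smaller. Of the 10 genes listed for the receptor and its JAK-STAT5 pathway, 6 rose and 1 fell, or 60% and 10% against 31.3% and 32.3% of all genes, with a median log2 fold change of 0.1. Under scaling by totals 4 rose and 2 fell. Leaving out PBS replicate 2 or 4 gave 2 falls. The kinase gene Jak1 rose by 0.23 (831 to 974 CPM on average), whereas Jak3, the kinase of the gamma chain, stood at 396, 363, 406 and 362 CPM in the PBS libraries and 375, 368, 395 and 364 CPM in the 3x libraries and did not pass the test (log2 fold change −0.02, SE 0.05, edgeR adjusted p = 0.732). The highly related STAT5 genes moved apart, Stat5a falling by 0.15 (edgeR adjusted p = 0.0206) from 144, 133, 149 and 139 CPM to 125, 128, 131 and 126 CPM and Stat5b at 0.09 with overlapping groups. The call on Stat5b was lost without PBS replicate 1 or 2 or 3x replicate 2 or 3 (log2 fold changes of 0.06 to 0.09). The adaptor gene Shc1 rose by 0.11, and Stat3 (0.04) and the phosphatase gene Ptpn6 (−0.14) did not pass, though Ptpn6 passed without PBS replicate 2 or 4 (−0.18 to −0.21).

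STAT5 target genes moved in both directions. Of 10 listed, 7 rose and 3 fell, against 31.3% and 32.3% of all genes. Socs2, a SOCS family feedback inhibitor, had the largest change of the list, from 31.1, 35.5, 35.7 and 31.5 CPM to 130.5, 79.1, 91.3 and 112 CPM (log2 fold change 1.63, SE 0.13, edgeR adjusted p = 8.05e-11). Pim1, which encodes a growth-promoting kinase, went from 1203, 1208, 1255 and 1154 CPM to 1799, 1715, 1981 and 1908 CPM (log2 fold change 0.62). Every 3x library lay above every PBS library for both genes. The cytokine gene Osm (0.84) and the cyclin genes Ccnd2 (0.36) and Ccnd3 (0.25) rose too. Cish, a classical early STAT5 target that restrains the receptor, rose from 228, 228, 239 and 238 CPM to 282, 247, 268 and 285 CPM (log2 fold change 0.22, SE 0.06, edgeR adjusted p = 0.00282). Pim2, a relative of Pim1, fell from 21.1, 18.9, 21.9 and 23.6 CPM to 10.4, 10.4, 8.96 and 9.51 CPM (log2 fold change −1.12). The survival gene Bcl2 fell from 202, 216, 215 and 228 CPM to 178, 166, 155 and 158 CPM (log2 fold change −0.39). Neither gene's groups overlapped. Socs1 (−0.20) and Socs3 (0.13) passed with all libraries. The call on Socs1 was lost without PBS replicate 1, 2 or 3 or 3x replicate 2 (log2 fold changes of −0.16 to −0.18), and that on Socs3 without PBS replicate 1 or 2 or any 1 of the 3x libraries (0.10 to 0.14).

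**Figure D2:**
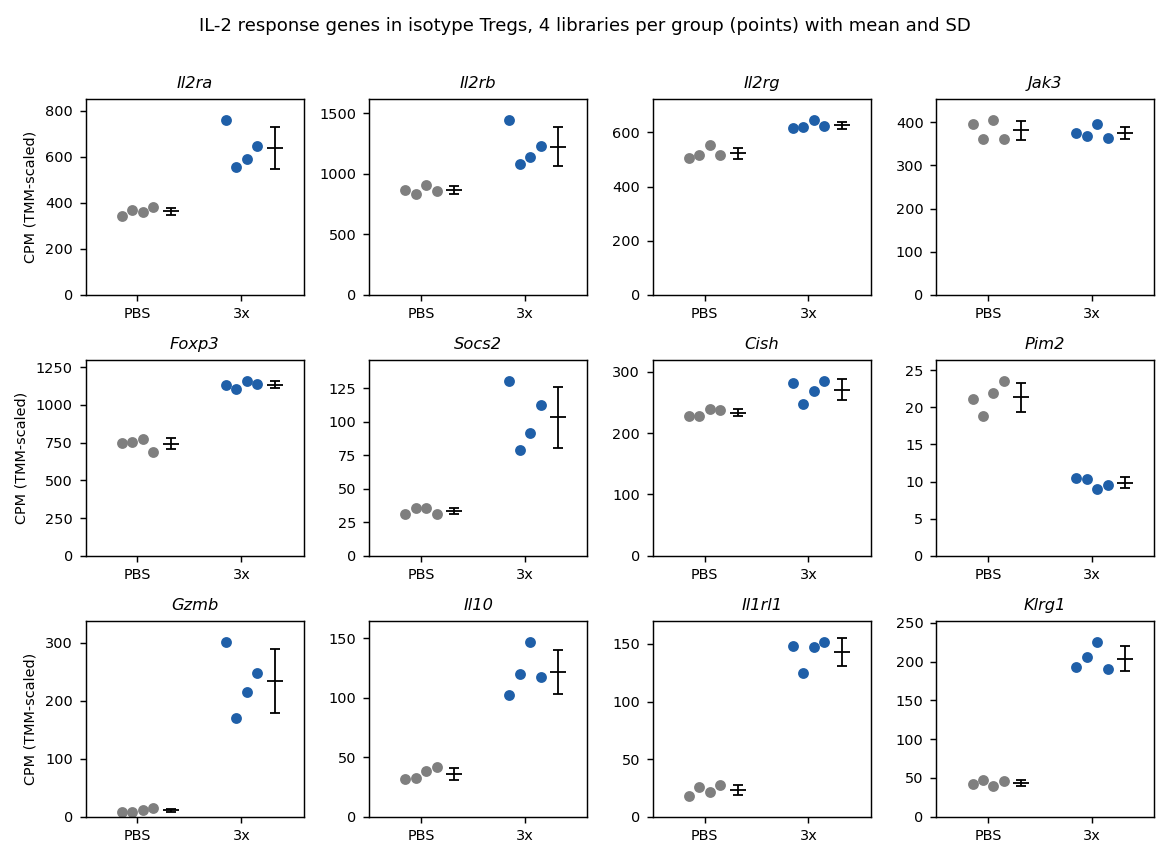
CPM of 12 genes of the IL-2 response in each PBS (grey) and 3x (blue) library, with the group mean and SD as a bar and whiskers beside the points (n = 4 per group), on linear axes that start at 0. Gzmb, Il1rl1 and Klrg1 have the widest gaps between the groups, Cish one of the smallest, and Jak3 and Pim2 show an overlap and a fall.

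The binding motif of STAT5 dimers was searched as TTCNNNGAA, a palindrome that reads the same on both strands, in windows of 250 bases before to 50 bases after the RefSeq start of each gene (assembly GRCm38.p6), which were at hand for 9764 of the 12392 tested genes. Of those windows 6.82% held it, as did 6.7% of the windows of genes that rose and 7.13% of those of genes that fell. Among the STAT5 targets 2 of 7 windows held it, those of Cish and Socs3. None of the 9 windows of the receptor and JAK-STAT5 list, Il2ra included, had a match, which says only that these letters are not in these windows. The Cish window (chr9:107296409-107296708, plus strand) is printed 5′ to 3′ because it held 2 matches, in capitals, at and just after the transcription start.
Cish: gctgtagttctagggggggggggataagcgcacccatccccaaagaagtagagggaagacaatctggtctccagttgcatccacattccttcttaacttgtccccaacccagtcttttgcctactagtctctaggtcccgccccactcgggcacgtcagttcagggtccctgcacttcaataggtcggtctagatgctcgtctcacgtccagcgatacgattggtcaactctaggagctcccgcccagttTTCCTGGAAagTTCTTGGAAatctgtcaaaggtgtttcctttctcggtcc

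Most genes that define the Treg lineage rose. Of 10 listed, 8 rose and 0 fell, against 31.3% and 32.3% of all genes, with a median log2 fold change of 0.58. Foxp3, the transcription factor that defines Tregs, stood at 746, 753, 774 and 689 CPM in the PBS libraries and 1132, 1106, 1158 and 1136 CPM in the 3x libraries (log2 fold change 0.61, SE 0.06, edgeR adjusted p = 5.02e-10). The 4 values of each group were tight and the groups far apart. Ikzf2, which encodes the transcription factor Helios, rose by 0.63, Lrrc32, which encodes the TGF-beta carrier GARP, by 0.71, the costimulatory receptor gene Tnfrsf18 by 0.55 and Capg, an actin-capping protein, by 0.66. The inhibitory receptor gene Ctla4 rose less (0.28), with overlapping groups. Nrp1 (0.16) did not pass without PBS replicate 1 or 3x replicate 3 (0.12 in both). Ikzf4 (−0.08) and the folate receptor gene Izumo1r (−0.04) did not pass.

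Among 14 suppressor molecules tested, 10 rose and 2 fell, or 71.4% and 14.3% against 31.3% and 32.3% of all genes (median 0.59). Gzmb, the serine protease granzyme B, had the largest rise of any list member: 8.77, 8.25, 11.7 and 15.3 CPM in the PBS libraries and 301, 171, 216 and 248 CPM in the 3x libraries (log2 fold change 4.43, SE 0.27, edgeR adjusted p = 3.03e-13), a 21.6-fold rise. The anti-inflammatory cytokine gene Il10 stood at 31.9, 32.2, 38.5 and 41.6 CPM in the PBS libraries and 102, 120.1, 147 and 118 CPM in the 3x libraries (log2 fold change 1.76). Tigit, an inhibitory receptor gene, stood at 107, 90.2, 106 and 75.1 CPM in the PBS libraries and 213, 201, 243 and 186 CPM in the 3x libraries (log2 fold change 1.15). No library of one group reached the other for these 3 genes. Fgl2 (0.91), the repair factor gene Areg (0.81) and Entpd1, which encodes the ATP-degrading enzyme CD39 (0.65), rose as well. Ebi3, a chain of IL-35, fell (−0.57), as did the pore-forming Prf1 (−0.40), the latter not without PBS replicate 1, 3 or 4 or 3x replicate 2 or 3 (−0.34 to −0.39). Nt5e, which encodes CD73 (0.10), and Itgb8 (−0.07) did not pass, though Nt5e did without PBS replicate 4 (0.20).

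Of 14 surface molecules of effector Tregs, 9 rose and 3 fell, or 64.3% and 21.4% against 31.3% and 32.3% of all genes (median 0.47). Il1rl1, which encodes the receptor for the alarmin IL-33, rose most, with 17.7, 26, 21.3 and 27.9 CPM in the PBS libraries and 148, 125, 147 and 152 CPM in the 3x libraries (log2 fold change 2.64, SE 0.13, edgeR adjusted p = 2.35e-15). Klrg1, a marker of terminally differentiated effector cells, stood at 42.8, 47.4, 39 and 45.7 CPM in the PBS libraries and 193, 206, 225 and 191 CPM in the 3x libraries (log2 fold change 2.22). Havcr2, which encodes TIM-3, stood at 5.6, 3.3, 5.58 and 2.9 CPM in the PBS libraries and 19.5, 18.1, 21.1 and 16.8 CPM in the 3x libraries (log2 fold change 2.08). In all 3 the groups stood well apart. Icos (0.92), Itgae, which encodes CD103 (0.87), Tnfrsf1b (0.50), Tnfrsf9 (0.44) and Tnfrsf4 (0.31) rose by less. Cd83, an activation marker that B cells and dendritic cells also carry, fell from 262, 251, 299.8 and 335 CPM to 62.5, 95.3, 88.3 and 79.9 CPM (log2 fold change −1.82), and Tnfrsf8 (−1.08) and Cd44 (−0.20) fell too. Pdcd1, which encodes PD-1, did not pass (0.16).

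Transcription regulators of the effector state did not rise as a group. Of 16 listed, 4 rose (25%, against 31.3% of all genes) and 7 fell (43.8%, against 32.3%, median −0.13). Maf, which drives Il10 in T cells, stood at 125, 143, 154 and 109 CPM in the PBS libraries and 289, 254, 266 and 259.8 CPM in the 3x libraries (log2 fold change 1.01, SE 0.09, edgeR adjusted p = 6.96e-10). Prdm1, which encodes Blimp-1, rose by 0.75, Ikzf3 by 0.39 and Gata3 by 0.38. Those 4 were the rises. Zeb2 had the largest fall, from 13.7, 9.52, 6.14 and 9.35 CPM to 2.94, 3.09, 3.14 and 2.8 CPM (log2 fold change −1.70). Myb followed (−1.00), and the groups did not overlap for either gene. Bhlhe40 (−0.59), Junb (−0.41), Tbx21 (−0.34) and Id2 (−0.16) fell by less, the call on Id2 being lost without PBS replicate 2, 3 or 4 or 3x replicate 1 or 4 (−0.12 to −0.15). Irf4 (−0.09), Batf (0.10) and Hif1a (0.16) did not pass, though Batf did without PBS replicate 3 (0.17) and Hif1a without PBS replicate 4 (0.25).

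Chemokine receptors changed in both directions. Of 14 listed, 6 rose and 5 fell (42.9% and 35.7%, against 31.3% and 32.3% of all genes). Ccr2, a receptor for monocyte chemoattractants of inflamed tissue, stood at 18.7, 30.6, 23.3 and 28.1 CPM in the PBS libraries and 122, 114, 134 and 128 CPM in the 3x libraries (log2 fold change 2.33, SE 0.14, edgeR adjusted p = 1.94e-13). Other receptors of tissue homing rose with it, Ccr3 by 2.26, Ccr4 by 1.46, Ccr10 by 1.05 and Cxcr3 by 0.78. Ccr6, which serves mucosal sites, fell from 25.5, 30.2, 25.7 and 29.3 CPM to 7.79, 11.9, 9.76 and 7.9 CPM (log2 fold change −1.57). The follicle-homing receptor gene Cxcr5 fell from 65.6, 61.6, 59 and 60.2 CPM to 25.7, 32.4, 29.8 and 30.2 CPM (log2 fold change −1.06). Cxcr4 (−0.62), Ccr7 (−0.51) and the gut-homing receptor gene Ccr9 (−0.45) fell as well. B cells also carry Ccr6, Cxcr5 and Ccr7, and without PBS replicate 1 the log2 fold changes of the first and second of these were −1.61 and −1.03. Ccr8 (0.03) did not pass.

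Of 13 genes of resting, recirculating T cells, 6 rose and 3 fell, or 46.2% and 23.1% against 31.3% and 32.3% of all genes (median 0.08). S1pr1, the receptor that lets lymphocytes leave lymphoid tissue, stood at 233, 208, 216 and 246 CPM in the PBS libraries and 477, 413, 417 and 455 CPM in the 3x libraries (log2 fold change 0.96, SE 0.07, edgeR adjusted p = 2.46e-11), above PBS in each 3x library. Itga6 rose by 0.53, Il7r by 0.30 (0.15 without PBS replicate 1 and 0.25 without 3x replicate 1, past the threshold in neither), Foxo1 by 0.25 and Lef1 by 0.21. Ccr7, Tcf7 (−0.33) and Klf2 (−0.25) fell, the last not without PBS replicate 3 or 3x replicate 1 (−0.20), while Bach2 (−0.14), Foxp1 (0.08) and Satb1 (0.00) did not pass.

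Of 16 integrins and adhesion molecules 11 rose and 3 fell, or 68.8% and 18.8% against 31.3% and 32.3% of all genes (median 0.51). Itga2, the alpha chain of a collagen receptor, stood at 4.63, 6.12, 5.38 and 4.65 CPM in the PBS libraries and 22.6, 19.7, 22.1 and 24 CPM in the 3x libraries (log2 fold change 2.10). Selplg, a selectin ligand, rose by 0.86 and the integrin gene Itgb7 by 0.77. The falls were Itgal (−0.39), Cd44 and Icam1 (−0.14), the last not without PBS replicate 1 or 4 or 3x replicate 2 or 4 (−0.12 to −0.13).

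More components of the T cell receptor rose than fell, and more of its response genes fell than rose. Of 20 genes of the receptor complex and its proximal kinases and adaptors, 12 rose and 1 fell, or 60% and 5% against 31.3% and 32.3% of all genes (median 0.18), Cd3d by 0.54, Cd3e by 0.53, Cd2 by 0.54 and Cd247 by 0.43. The kinase gene Lck (0.08) did not pass, nor did Zap70 (0.00). Of 14 response genes 2 rose and 8 fell, or 14.3% and 57.1% (median −0.19), and 5 fell without 3x replicate 1, a share near the 32.3% of all genes. Egr1 stood at 568, 519, 509 and 540.1 CPM in the PBS libraries and 229.8, 297, 263 and 272 CPM in the 3x libraries (log2 fold change −1.01, SE 0.1, edgeR adjusted p = 1.4e-09). Egr2, which is induced by antigen signals, stood at 40.6, 38.5, 41 and 39.3 CPM in the PBS libraries and 20.0, 21.8, 20.6 and 20.4 CPM in the 3x libraries (log2 fold change −0.95). Every 3x library lay below every PBS library for both. Nr4a3 (−0.74), Myc (−0.51) and Nr4a2 (−0.50) fell, Cd5 (0.34) and Cd69 (0.30) rose, and Nr4a1 did not pass (−0.16, 960, 913, 1199 and 1261 CPM against 860, 982, 1007 and 1019 CPM), except without PBS replicate 2 (−0.24). Egr1 and Nr4a genes also belong with the immediate early genes. The summed level of 8 immediate early and heat shock genes fell in the same libraries. Among them Fosb (−1.15) and Jun (−0.88) fell, while Fos (−0.10) and Ier2 (−0.05) did not pass. The part of these genes' common response was not tested.

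Lists of other signalling pathways are set against the 31.3% of all genes that rose and the 32.3% that fell. NF-kB subunits and regulators had 2 rises and 9 falls of 16, or 12.5% and 56.2% (median −0.20, 1 rise and 11 falls under scaling by totals), led by Relb (−0.65), Nfkb2 (−0.59) and Rel (−0.50), while Nfkbia, the inhibitor of NF-kB, rose (0.27), as did Nfkb1 (0.11). MAPK phosphatases and Sprouty proteins had 3 rises and 6 falls of 11 (27.3% and 54.5%), with Spry2 (−1.06) and Spry1 (−0.68) lowest and Dusp5 (0.52) highest. The TGF-beta pathway had 5 rises and 5 falls of 13, or 38.5% each, near the shares of all genes (4 and 7 under scaling by totals), with the co-receptor gene Tgfbr3 at −1.28, the repressor gene Skil at −0.76 and Smad2 and Smad3 at 0.23 and 0.22. PI3K, Akt, mTOR and Foxo genes had 7 rises and 5 falls of 18, or 38.9% and 27.8%, also near them (3 falls without PBS replicate 4), with Sgk1 at 0.54 and the amino acid transporter genes Slc7a5 and Slc3a2 at −0.82 and −0.45. The list's median of 0.03 became −0.03 when libraries were scaled by their totals alone. Slc7a5 stood at 67.7, 60.6, 65.9 and 58.1 CPM in the PBS libraries and 39.8, 37.6, 32.8 and 33.3 CPM in the 3x libraries, without overlap.

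Receptors for other cytokines were read as a list of 18 tested genes with 7 rises and 3 falls (38.9% and 16.7%, against 31.3% and 32.3% of all genes), but 6 and 6 under scaling by totals, and its median of 0.04 also changed sign there (−0.02). The decoy receptor gene Il1r2 fell most, from 40.4, 24.9, 41.2 and 23.6 CPM to 4.83, 5.16, 5.6 and 2.58 CPM (log2 fold change −2.85, SE 0.36, edgeR adjusted p = 1.65e-07), and its signalling counterpart Il1r1 fell by 1.55 on the log2 scale. Il12rb2 fell by 0.47. In contrast, the IL-33 receptor gene described above and Il10ra (1.04), the ligand-binding chain for IL-10, rose, with Ifngr1 (0.52) and Ifnar1 (0.48).

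Mitotic genes rose throughout. All 25 listed G2/M genes rose, against 31.3% of all genes, all without overlap between the 4 and 4 libraries, against 23.4% of all genes on that side, and their median log2 fold change was 1.14. The proliferation marker Mki67 stood at 162, 134, 133 and 146 CPM in the PBS libraries and 504, 328, 343 and 418 CPM in the 3x libraries (log2 fold change 1.47, SE 0.14, edgeR adjusted p = 7.85e-10). Cenpf, a kinetochore protein, stood at 16.9, 14.5, 12.5 and 17.3 CPM in the PBS libraries and 61.1, 38.6, 37.7 and 51.3 CPM in the 3x libraries (log2 fold change 1.62). The mitotic cyclin gene Ccnb2 stood at 15.7, 12.5, 13.4 and 12.1 CPM in the PBS libraries and 49.2, 28, 33.4 and 40.0 CPM in the 3x libraries (log2 fold change 1.48). In each of the 3 genes 3x replicate 1 was the highest library and replicate 4 the next. The range over the list ran from 0.56 for the spindle checkpoint gene Mad2l1 to 1.62 for Cenpf, and Birc5 (1.49) and Top2a (1.10) lay between.

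DNA replication genes did not follow. Of 24 S phase genes 4 rose (16.7%, against 31.3% of all genes) and 8 fell (33.3%, near the 32.3% of all genes). Their median log2 fold change was −0.03. Pcna, the sliding clamp of DNA polymerase, stood at 219, 219, 229.9 and 208 CPM in the PBS libraries and 224, 201, 203 and 229.8 CPM in the 3x libraries, which overlapped (−0.03). Mcm2, a subunit of the replicative helicase, fell from 111, 101, 102 and 96.4 CPM to 86.8, 72.1, 70.1 and 78.4 CPM (log2 fold change −0.42, SE 0.07, edgeR adjusted p = 1.54e-05), and Mcm5 (−0.34) and Rfc4 (−0.35) fell with it. Rrm2, a ribonucleotide reductase subunit, stood at 40.2, 31, 34.9 and 30.7 CPM in the PBS libraries and 80.9, 51.4, 55 and 67 CPM in the 3x libraries (log2 fold change 0.89). It was the largest of 4 rises, with the cyclin E genes Ccne1 (0.58) and Ccne2 (0.54), and Tyms (0.29).

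Regulators of cycle entry rose in 9 cases and fell in 2 of 14, or 64.3% and 14.3% against 31.3% and 32.3% of all genes. CDK inhibitors were among the rises. Cdkn2c, which restrains CDK4 and CDK6, stood at 12.6, 12, 11.4 and 10.8 CPM in the PBS libraries and 45.9, 33.5, 39.8 and 38.4 CPM in the 3x libraries (log2 fold change 1.75). Cdkn2a, which encodes p16 and ARF, stood at 0.714, 0.486, 0.606 and 0.0528 CPM in the PBS libraries and 5.64, 2.82, 3.67 and 2.67 CPM in the 3x libraries (log2 fold change 2.89), a low level in both groups. Cdkn2d rose by 0.98. Ccnd1 (−1.65) and Cdk4 (−0.24) fell.

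**Figure D3:**
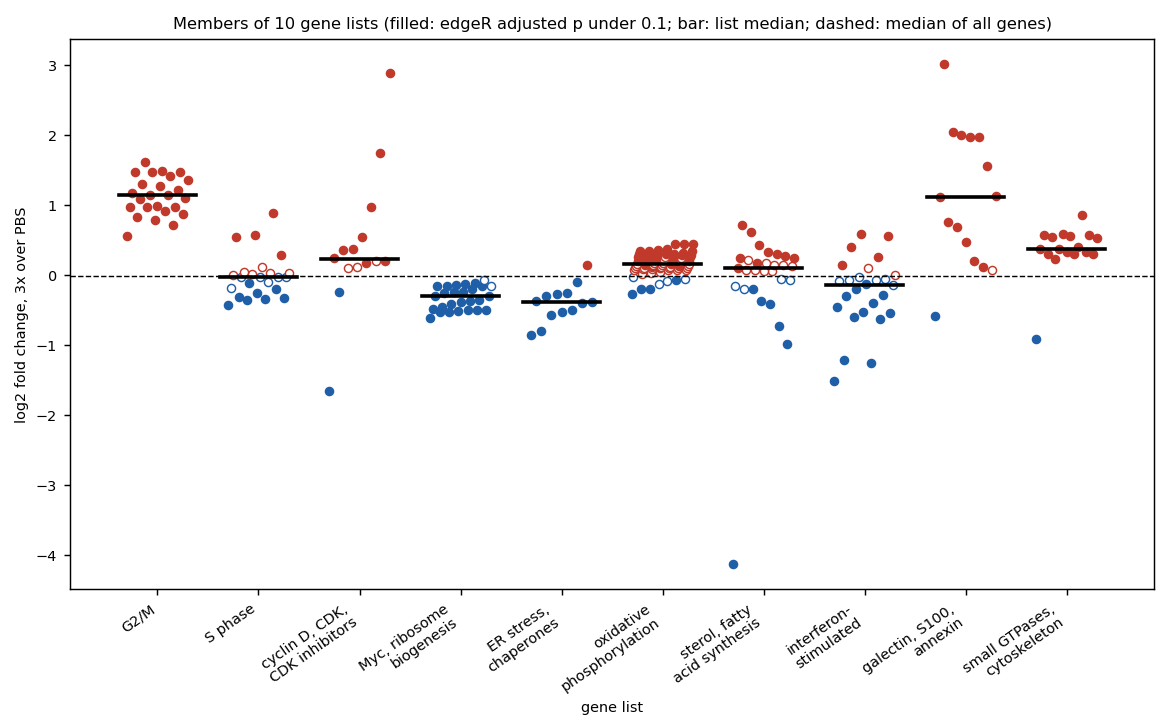
Log2 fold change, 3x over PBS, of every tested member of 10 gene lists, 1 point per gene, filled where edgeR's adjusted p was under 0.1, with the list median as a black bar and the median of all tested genes as a dashed line. All 25 G2/M genes lie above 0, S phase genes scatter around 0, and 25 of 27 ribosome biogenesis genes and 12 of 13 ER chaperone genes are filled below 0.

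G2/M promoters share elements that the choice of the list did not use. The cell cycle homology region, bound by the DREAM complex, was searched by its core TTTGAA, and CCAAT, bound by NF-Y, by those 5 letters, both on either strand. TTTGAA can share its last bases with the STAT5 motif and its ends with a CCAAT match, and such overlaps were counted for each motif. TTTGAA was found in 14 of the 21 G2/M windows at hand (66.7%), in 12.2% of all windows and in 10% of 20 S phase windows. CCAAT was found in 17 of 21 (81%), in 38.8% of all and in 60% of the S phase windows. Both together stood in 66.7% of the G2/M windows and 5.07% of all. Among the 238 genes with a window that rose by at least 1, TTTGAA was present in 25.6%, and in 23.6% of the 225 of these that are in neither the G2/M nor the S phase list, whereas genes that fell by at least 1 had it in 12.8%. The windows of 3 members are printed 5′ to 3′ because their genes had among the larger rises of the list, with capitals marking TTTGAA and CCAAT read on either strand. They lie on the minus strand at chr9:70421505-70421804, chr1:189688037-189688336 and chr7:135716330-135716629 of GRCm38.p6.
Ccnb2: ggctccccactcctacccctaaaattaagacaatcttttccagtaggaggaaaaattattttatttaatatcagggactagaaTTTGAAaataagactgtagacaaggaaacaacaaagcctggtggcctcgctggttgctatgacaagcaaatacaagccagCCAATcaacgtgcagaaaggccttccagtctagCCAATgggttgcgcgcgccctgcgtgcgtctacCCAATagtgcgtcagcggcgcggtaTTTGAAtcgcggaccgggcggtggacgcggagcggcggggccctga
Cenpf: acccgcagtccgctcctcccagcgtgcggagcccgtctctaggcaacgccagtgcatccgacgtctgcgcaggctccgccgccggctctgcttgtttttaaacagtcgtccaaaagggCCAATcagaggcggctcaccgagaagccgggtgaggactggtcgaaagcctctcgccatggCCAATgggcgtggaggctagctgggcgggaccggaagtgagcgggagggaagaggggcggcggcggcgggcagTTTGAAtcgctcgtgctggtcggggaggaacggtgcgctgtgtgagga
Mki67: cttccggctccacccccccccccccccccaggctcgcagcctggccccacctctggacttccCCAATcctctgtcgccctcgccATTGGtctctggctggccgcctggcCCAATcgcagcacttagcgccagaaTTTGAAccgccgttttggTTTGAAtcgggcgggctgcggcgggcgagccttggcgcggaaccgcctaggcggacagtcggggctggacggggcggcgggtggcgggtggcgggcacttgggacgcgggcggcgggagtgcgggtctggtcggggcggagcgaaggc

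Genes of ribosome production fell. Of 27 Myc and ribosome biogenesis genes 25 fell and 0 rose, against 32.3% of all genes lower (median −0.30), and in 19 of them every 3x library lay below every PBS library, against 23% of all genes. Nop56, a core protein of the complexes that modify ribosomal RNA, stood at 158, 150.2, 158 and 145 CPM in the PBS libraries and 107, 109, 101 and 111 CPM in the 3x libraries (log2 fold change −0.52, SE 0.04, edgeR adjusted p = 2.45e-11), and Utp20 (−0.61), Rrp12 (−0.53) and Myc itself (−0.51) fell by about as much. The abundant nucleolar genes Ncl (−0.20) and Npm1 (−0.14) fell by less. ER chaperones and stress genes fell in 12 of 13 cases, against 32.3% of all genes (median −0.38). Herpud1, an ER stress gene, stood at 184, 166, 166 and 169 CPM in the PBS libraries and 90.9, 94.6, 99 and 92.9 CPM in the 3x libraries (log2 fold change −0.86), Xbp1, which plasma cells need, fell by 0.79 and Hspa5, the main ER chaperone BiP, by 0.53. Pdia3 rose (0.14), but not without PBS replicates 1 and 4. Plasma cells are rich in ER transcripts, and their markers fell in the same libraries from 1480 to 1820 CPM to 84.9 to 183 CPM. Their part in the ER list was not tested.

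The lists of energy metabolism had small median changes, while some of their genes changed by more. Of 70 oxidative phosphorylation subunits 34 rose and 4 fell, or 48.6% and 5.71% against 31.3% and 32.3% of all genes (median 0.16), led by Ndufb11 (0.45), Cox5a (0.45) and Ndufa8 (0.44). The count depended on the PBS libraries, with 45 rising and 0 falling without replicate 1 and 24 rising and 5 falling without replicates 1 and 4, and 2 fell without 3x replicate 4. Under scaling by totals 26 rose and 7 fell. Of 19 glycolysis genes 9 rose and 5 fell (47.4% and 26.3%), 3 without PBS replicate 1 or 3x replicate 2, and 6 rose and 6 fell under scaling by totals. The glucose transporter gene Slc2a3 rose by 0.73 and lactate dehydrogenase Ldha by 0.57, while Hk2, the inducible hexokinase, fell from 23.6, 19.9, 19.5 and 19.6 CPM to 9.18, 9.26, 9.54 and 10.2 CPM (log2 fold change −1.12, SE 0.09, edgeR adjusted p = 1.07e-10). Gapdh was nearly level (0.01). Sterol and fatty acid synthesis had 10 rises and 6 falls of 29 (34.5% and 20.7%, against 31.3% and 32.3% of all genes). Mvd, an enzyme of the mevalonate pathway, rose from 18.7, 15.7, 19.5 and 12.8 CPM to 31, 24.8, 24.2 and 30.3 CPM (log2 fold change 0.72), with Elovl6 (0.62) and Fdft1 (0.43), and Acaca, which makes malonyl-CoA for fatty acid synthesis, fell (−0.72). The sterol response element, searched as TCACNCCAC on both strands, was found in 1 of the 20 windows of this list and in 0.973% of all windows. The desaturase gene Scd1 had the largest fall (−4.13), but stood at 82.8, 9.53, 7.00 and 11.8 CPM in the PBS libraries, so its size rests on replicate 1, and it was −2.54 without it.

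Of 26 interferon-stimulated genes tested, 5 rose and 13 fell, or 19.2% and 50% against 31.3% and 32.3% of all genes (median −0.13). Mx1, an antiviral GTPase, stood at 15.9, 14.8, 20.4 and 15.6 CPM in the PBS libraries and 5.56, 6.89, 6.59 and 4.48 CPM in the 3x libraries (log2 fold change −1.51, SE 0.17, edgeR adjusted p = 1.68e-08), and Oasl2 (−1.25) and Ifi44 (−1.21) fell. In contrast, Oas1a, a sensor of double-stranded RNA, stood at 37.8, 28, 34.2 and 26.5 CPM in the PBS libraries and 46.4, 48.6, 52.8 and 43.7 CPM in the 3x libraries (log2 fold change 0.59), and Oas2 (0.56) and Oas3 (0.40) rose with it. The interferon response element was searched as GAAA, any 2 bases and GAAA again, on both strands, and was found in 11 of the 18 windows of the list (61.1%) and in 3.27% of all windows. The windows of a gene that fell and of one that rose are printed 5′ to 3′ because both hold the element, in capitals, where overlapping matches run together. Isg15 (−0.52) is on the minus strand at chr4:156200769-156201068 and Oas1a on the minus strand at chr5:120907476-120907775 of GRCm38.p6.
Isg15: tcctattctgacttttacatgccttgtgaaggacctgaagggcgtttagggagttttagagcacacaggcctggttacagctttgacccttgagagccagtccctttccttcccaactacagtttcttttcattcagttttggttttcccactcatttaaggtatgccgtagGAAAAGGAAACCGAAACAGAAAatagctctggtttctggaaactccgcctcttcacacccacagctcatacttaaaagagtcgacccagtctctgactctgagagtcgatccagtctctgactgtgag
Oas1a: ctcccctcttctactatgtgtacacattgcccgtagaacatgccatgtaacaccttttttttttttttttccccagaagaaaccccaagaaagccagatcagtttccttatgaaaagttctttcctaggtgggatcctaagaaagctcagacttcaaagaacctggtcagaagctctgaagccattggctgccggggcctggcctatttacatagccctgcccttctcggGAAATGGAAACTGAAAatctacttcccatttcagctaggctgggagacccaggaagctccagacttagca

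Of 13 Bcl2 family and death genes tested 7 rose and 3 fell (53.8% and 23.1%, against 31.3% and 32.3% of all genes), among the rises the pro-apoptotic Bcl2l11, which encodes BIM (0.74), and Bak1 (0.53), and the falls being Bcl2, Pmaip1 (−0.42) and Mcl1 (−0.15). Of 11 granzymes and cytotoxic genes 5 rose and 4 fell (45.5% and 36.4%, against 31.3% and 32.3% of all genes). Beside Gzmb, Gzmc rose by 1.99, Gzma by 1.51, Nkg7 by 0.78 and the granule proteoglycan gene Srgn by 0.53. The falls included genes of receptors found on NK cells, Klrk1 by 1.10, Klrd1 by 1.05 and Klrc1 by 0.98, and the sum of the NK cell markers fell in the same libraries from 29.1 to 44 CPM to 11.7 to 20.1 CPM.

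Membrane and cytoskeletal genes mostly rose. Of 15 galectin, S100 and annexin genes 13 rose and 1 fell, against 31.3% and 32.3% of all genes (median 1.11). S100a6, a calcium-binding protein of motile cells, stood at 54.2, 54.5, 54.5 and 27.8 CPM in the PBS libraries and 455, 312, 399 and 379 CPM in the 3x libraries (log2 fold change 3.01, SE 0.17, edgeR adjusted p = 4.26e-14). S100a4, of the same family, stood at 84.5, 111, 84.2 and 61.8 CPM in the PBS libraries and 379, 329, 364 and 328 CPM in the 3x libraries (log2 fold change 2.04). No PBS library came near a 3x library for either gene. Anxa2 rose by 2.00, Lgals1, a galectin that Tregs use in suppression, by 1.98, Lgals3 by 1.97 and S100a10, the partner of annexin A2, by 1.56, and Anxa1 fell (−0.58). Of 17 small GTPases and cytoskeletal regulators 16 rose and 1 fell, against 31.3% and 32.3% of all genes, all without overlap, against 23.4% and 23% (median 0.38). Nck2 rose by 0.86, Rhog by 0.59, Cdc42 by 0.58 and Arpc5 by 0.58, and the kinase gene Pak1 was the fall (−0.91).

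The largest rises over all genes included several outside the lists. The 10 largest, among genes above 5 CPM on average whose libraries did not overlap, ran from 5.03 to 2.97. Amotl1, a tight junction protein of the angiomotin family (GRCm38 chromosome 9, 14541966 to 14645056), stood at 0.457, 0.68, 0.687 and 0.898 CPM in the PBS libraries and 24.1, 19, 23.7 and 18.9 CPM in the 3x libraries (log2 fold change 5.03, SE 0.22, edgeR adjusted p = 3.28e-16), a 32.7-fold rise from near the filter's limit of 0.5 CPM. Gcg, which encodes the peptide hormone glucagon (chromosome 2, 62474530 to 62483650), stood at 0.857, 0.0971, 0.889 and 0.422 CPM in the PBS libraries and 16.9, 11.5, 4.98 and 14.7 CPM in the 3x libraries (log2 fold change 4.27). Drc1, a protein of ciliary dynein complexes (chromosome 5, 30281388 to 30366695), stood at 3.29, 2.57, 3.31 and 2.75 CPM in the PBS libraries and 43.8, 14.7, 17.1 and 25.5 CPM in the 3x libraries (log2 fold change 3.07). The spread within the 3x group was wide for Gcg and Drc1. The others were Gzmb, Nos1 (3.33), Frmd5 (3.25), Nckap5 (3.25), Tmprss13 (3.17), S100a6 and Ifitm1 (2.97). Without PBS replicate 1, 329 of the 334 genes that rose by at least 1 were still called.

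The largest falls included genes of other cells. Of the 10 largest among genes above 5 CPM on average whose libraries did not overlap, from −6.05 to −3.73, 5 are in the B cell and plasma cell marker lists, among them Fcer2a, Pax5, Cd79a and Jchain. Fcer2a, which encodes the B cell IgE receptor CD23, stood at 54.3, 2.77, 1.25 and 5.97 CPM with PBS, and its fall shrank to −3.74 without replicate 1 (edgeR adjusted p = 0.0141). Pax5 (−4.25), Cd79a (−3.83), Blnk (−3.73), which encodes a B cell adaptor, and Chst3 (−3.87) became −2.88, −2.88, −2.96 and −2.56 without that library. Jchain, the chain that links secreted IgM and IgA, fell as much without it (−3.88 and −3.86), as did the eosinophil granule protein gene Prg2 (−4.18 and −4.05). Hspa1a, the inducible heat shock protein HSP70, stood at 68.2, 78, 206 and 148 CPM in the PBS libraries and 3.44, 6.29, 9.22 and 8.59 CPM in the 3x libraries (log2 fold change −4.18, −4.39 without PBS replicate 1). Scd1 was also among the 10. Of the 1056 genes that fell by at least 1, 971 were still called without PBS replicate 1. Of the 1056, 53 are in the marker lists other than those of Tregs and T cells. Those 53 include Fosb, Atf3, Hspa1a and Hspa1b of the immediate early and heat shock set. The lists are short, so that number does not measure the part of other cells, which was not tested.

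Tregs of mice given WT IL-2 or H16R with the same antibody were compared with 3x directly, at the same dose and day. Against WT IL-2, 4296 genes (34.7%) passed, 2099 (16.9%) higher and 2197 (17.7%) lower with 3x. Without either of the 2 libraries that share a number, 3580 or 3724 passed. Against H16R, 1429 (11.5%) passed, 714 (5.76%) higher and 715 (5.77%) lower. The second count was 590 without 3x replicate 1, 791 without 3x replicate 4 and 789 without H16R replicate 4. Mean Il2ra was 364 ± 16 CPM (SD, n = 4) with PBS, 431 ± 22.2 CPM with WT IL-2, 494 ± 43.4 CPM with H16R and 639 ± 89.9 CPM with 3x, and 3x exceeded WT IL-2 by 0.57 (95% interval 0.38 to 0.76, edgeR adjusted p = 6.12e-05) and H16R by 0.37 (0.18 to 0.56, edgeR adjusted p = 0.0143). Without 3x replicate 1, its highest library, the difference from H16R was 0.28 and did not pass (edgeR adjusted p = 0.107). Il2rb was higher by 0.30 and 0.24, the second not past the threshold without 3x replicate 1 (0.15, edgeR adjusted p = 0.159). Jak3 was lower with 3x than with either (−0.40 and −0.46). For Foxp3, 3x was above WT IL-2 by 0.19 and within −0.14 to 0.08 of H16R (−0.03, edgeR adjusted p = 0.833). Il2rg did not pass against either (−0.01, interval −0.10 to 0.08, and −0.06, interval −0.16 to 0.03).

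All 25 G2/M genes were higher with 3x than with WT IL-2 (median 0.63) and 24 of them higher than with H16R (median 0.58), against 16.9% and 5.76% of all genes. Without 3x replicate 1 the count against H16R was 12 of 25, and against WT IL-2 it was 24 or 25 without any 1 library. Mean Mki67 was 243 ± 47.8 CPM with WT IL-2, 275 ± 30.7 CPM with H16R and 398 ± 81.1 CPM with 3x, and its difference from H16R (0.54) was 0.40 without 3x replicate 1 (edgeR adjusted p = 0.104). Ribosome biogenesis genes had 15 of 27 higher and 0 lower than with H16R (median 0.16) and 3 higher and 2 lower than with WT IL-2. The count against H16R was 9 without 3x replicate 2 or H16R replicate 4. Sterol and fatty acid genes had 16 of 29 higher than with WT IL-2 and 13 higher than with H16R. Against WT IL-2, 3x had lower levels of 9 of 14 suppressor molecules, 8 of 14 effector surface molecules, 11 of 16 effector transcription regulators, 9 of 14 T cell receptor response genes, 12 of 26 interferon-stimulated genes and 9 of 13 ER genes, against 17.7% of all genes, and higher levels of 9 of 13 naive and recirculation genes, 10 of 15 galectin, S100 and annexin genes and 12 of 17 small GTPase and cytoskeletal genes. Against H16R, 7 interferon-stimulated genes were lower, but 3 or 4 without 3x replicate 1 or 4 or H16R replicate 1, 2 or 4, and 0 ER genes were lower. Marker sums of plasma cells were not taken for the WT IL-2 and H16R libraries, and their part in the ER counts was not tested. Lag3, an inhibitory receptor gene, shows the first group: it stood at 64.1 ± 21.3 CPM with PBS, 202 ± 81.4 CPM with WT IL-2, 192 ± 24.5 CPM with H16R and 92.5 ± 13.1 CPM with 3x. Gzmb shows the opposite, at 88.2 ± 26.3 CPM with WT IL-2, 178 ± 58.4 CPM with H16R and 234 ± 54.9 CPM with 3x, higher than WT IL-2 (1.41, edgeR adjusted p = 4.26e-05) and not distinguished from H16R (0.40, interval −0.05 to 0.85).

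**Figure D4:**
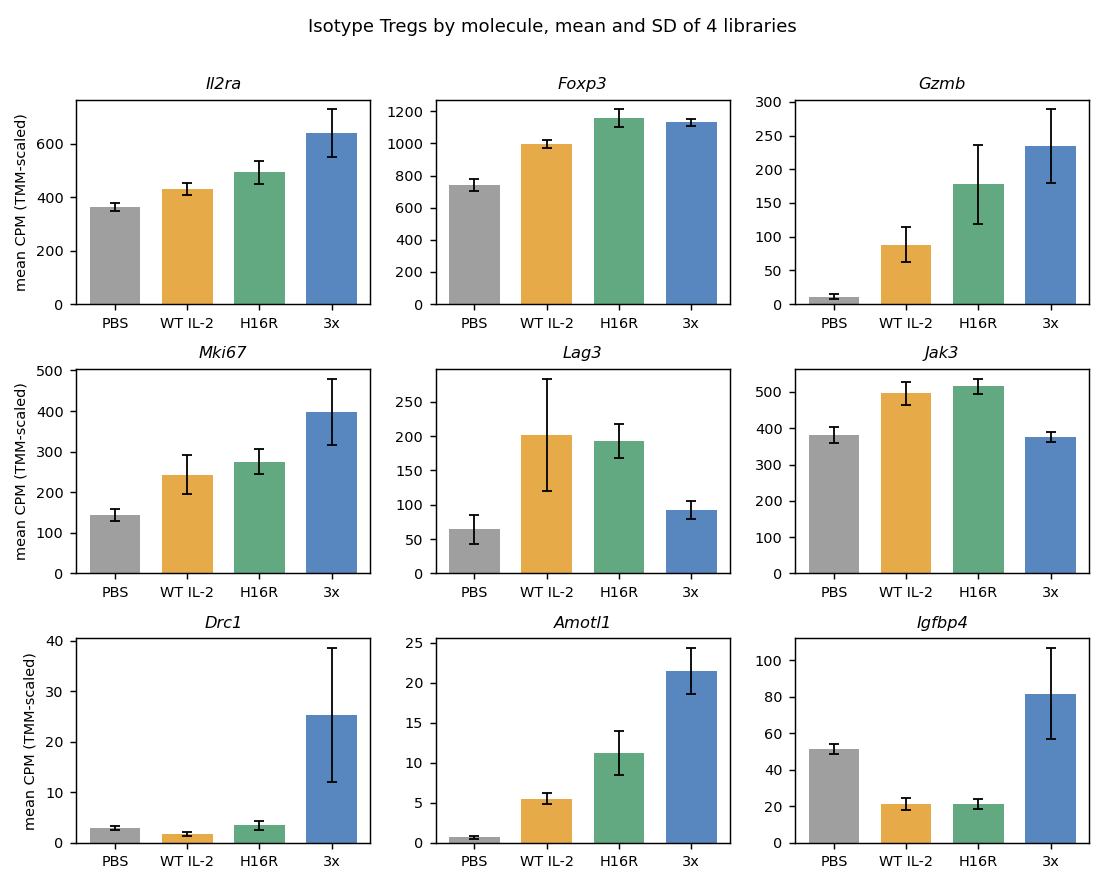
Mean CPM of 9 genes in isotype Tregs of mice given PBS, WT IL-2, H16R or 3x, with SD (n = 4 libraries per group) as bars and whiskers, on linear axes that start at 0. Il2ra, Mki67, Drc1, Amotl1 and Igfbp4 are highest with 3x, Lag3 is lower with 3x than with WT IL-2 and H16R, and Foxp3 and Gzmb with 3x are near H16R.

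Among called genes above 5 CPM on average over the PBS and 3x libraries whose compared groups did not overlap, Drc1 and Amotl1 were among the 3 largest rises in both direct comparisons. Drc1 averaged 2.98 ± 0.377 CPM with PBS, 1.75 ± 0.416 CPM with WT IL-2, 3.45 ± 0.929 CPM with H16R and 25.3 ± 13.2 CPM with 3x, a log2 difference of 3.85 from WT IL-2 and of 2.87 from H16R (edgeR adjusted p = 8.92e-10 and 9.62e-08). Amotl1 was higher by 1.96 and 0.94, and Ifitm1 was higher than with WT IL-2 by 2.19. Igfbp4, which encodes a binding protein of insulin-like growth factors, stood at 51.4 ± 2.86 CPM with PBS, 21.1 ± 3.37 CPM with WT IL-2, 21.3 ± 2.66 CPM with H16R and 81.8 ± 24.9 CPM with 3x, where 3x replicates 1 to 4 stood at 116, 71.7, 56.8 and 83 CPM. It was 1.95 above WT IL-2 and 1.94 above H16R (edgeR adjusted p = 3.44e-09). Under the same limits the largest differences downwards were Mzb1 (−2.87 and −1.97), a plasma cell gene, Slpi (−3.57 and −1.92), a protease inhibitor, and Hspa1a (−3.38 and −1.83). Against H16R the call on Slpi was lost without 3x replicate 1 or H16R replicate 4 (−1.87 and −1.71). The call on Hspa1a against H16R was lost without 3x replicate 1, 2 or 4 or H16R replicate 1 or 3 (−1.60 to −1.95). Of the genes called against H16R, 100 differed by at least 1.

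With MHC class II blocked, the response to 3x differed in 4835 genes (39%), 2516 (20.3%) with a difference upwards and 2319 (18.7%) downwards of the response under isotype antibody. Each response was taken against PBS mice given the same antibody. Of 11 granzymes and cytotoxic genes 10 had a difference upwards (median difference 1.84), Gzma most (4.24). For members that fell under isotype antibody, such as Klrk1 (difference 1.64), Klrd1 (2.40), Klrc1 (2.00) and Prf1 (1.75), a difference upwards is not by itself a larger response. Marker sums of NK and other cells were not taken for the block libraries, and the part of such cells in these differences was not tested. Gzmb averaged 8.97 ± 1.19 CPM with PBS and 729 ± 185 CPM with 3x under the block. S phase genes had 21 of 24 differences upwards (median 0.50) and G2/M genes 18 of 25 (median 0.55), the latter 6 without isotype PBS replicate 1 and 7 without isotype 3x replicate 2 or block 3x replicate 4. Naive and recirculation genes had 11 of 13 downwards (median −0.47) and Treg lineage genes 6 of 10 (median −0.29). The difference in the response of Il2ra was 0.36 (edgeR adjusted p = 0.04). It did not pass without isotype 3x replicate 2 or block 3x replicate 4, where the highest edgeR adjusted p was 0.125. That of Foxp3 was −0.26 (edgeR adjusted p = 0.0132). Among genes above 5 CPM on average over the isotype PBS and 3x libraries, Ifit1 (−1.26) and Actn2 (−1.05) had among the largest differences downwards. Under that limit Fcer2a (6.34) and Scd1 (4.31) had the largest differences upwards, and both were highest in isotype PBS replicate 1, as given above. Without that library the differences were 4.05 and 2.73. Both genes fell under isotype antibody (−6.05 and −4.13), so these differences upwards are not by themselves larger responses either.

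**Figure D5:**
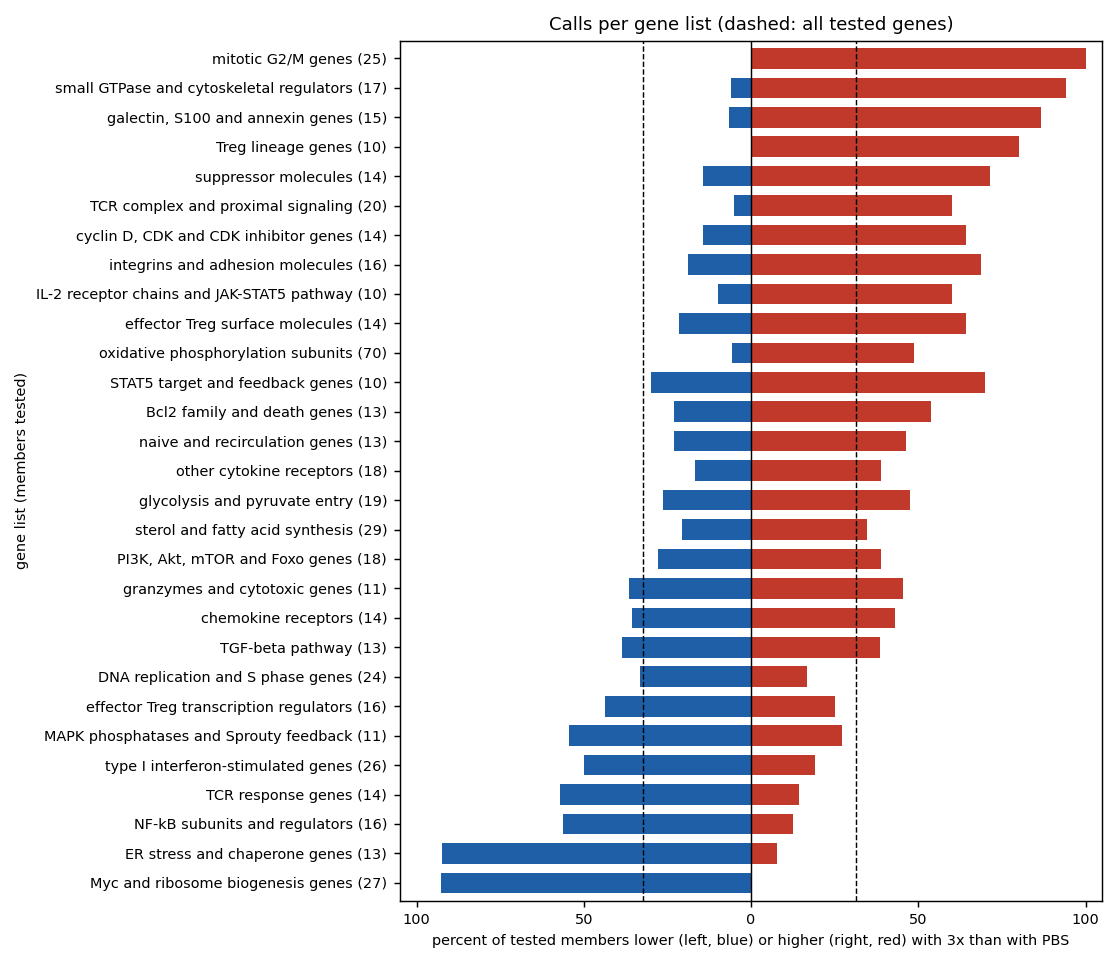
Share of tested members of each of the 29 gene lists that were higher (red) or lower (blue) with 3x than with PBS at an edgeR adjusted p under 0.1, in percent, with the shares over all 12392 tested genes as dashed lines at 31.3% and 32.3%. Each bar ends at its list's share, and the number of tested members follows the list's name; G2/M genes reach 100% higher, and Myc and ribosome biogenesis genes 92.6% and ER genes 92.3% lower.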

How the data were processed

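Polyadenylated RNA of 48 splenic T cell libraries was sequenced, 32 of them from Tregs in 8 groups of 4 libraries. Each mouse gave its own sample, so p-values measure the spread between mice, save where 2 WT IL-2 libraries share a number. Per the study's methods and the labels, the authors aligned reads to mouse genome B38 with OSA in Omicsoft Array Suite and deposited RSEM expected counts per gene, without normalization, and FPKM of the same genes. The authors' DESeq2 1.30.1 comparison tables (log2 fold changes, adjusted p-values and test statistics) were not used. Of nonzero expected counts 72.6% were whole, and all were rounded. No column belonged to other samples (0).

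Protein-coding genes (GENCODE vM21, which holds 51519 of the 53345 names, 96.6%) above 0.5 CPM in at least 4 of the 32 Treg libraries were kept. Of 12421, 29 with an empty cell were left out, and 12392 were tested. Library totals came from all genes. edgeR 4.0.16 in R 4.3.3 fitted the 8 groups in 1 quasi-likelihood model after TMM scaling, and contrasts were adjusted by Benjamini-Hochberg over all tested genes, with a threshold of 0.1. SE was the absolute log2 fold change over the square root of F. The procedure was tested on simulated data. The 3x and PBS totals differ in range, and thinning to the smallest total of 18.28 M was among the alternatives, with DESeq2 1.42.0, limma 3.58.1 on log2(FPKM + 1) and log2(FPKM + 0.1), other scalings and filters, a block on replicate number and each library left out. Libraries of each group compared here differed by more than counting noise (chi-square per gene of at least 3.82, and 29.54 for 2 WT IL-2 libraries that share a number in their labels), so none was taken as a library deposited again and each was counted as 1 sample. This does not show whether those 2 WT IL-2 libraries come from separate mice.

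The members and gene lists were chosen with earlier results of these data known, and no set test was run. Named genes were the 10 largest rises and 10 largest falls past the threshold above 5 CPM without overlap, every member of the receptor, STAT5 target and lineage lists, up to 3 rises, 3 falls and the 2 most abundant members of each other list, and the 3 largest rises and falls of each other contrast. Further list members were named after their values were seen. List members not tested were Il12a, Il6st, Tm7sf2, Mx2, Bbc3 and Ddit3. Promoter windows (RefSeq, GRCm38.p6) were matched by symbol, the first window of a gene was used, and motif shares are descriptions. Some genes the rule names are not reported here.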

Additional observations from a re-analysis of the deposited data

Results flagged for a closer look

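Within the groups of 4 libraries, the highest or lowest value stood apart, by Dixon's test at the 95% level (the gap to the next value as a share of the group's range), in 35 of 462 groups of gene values or marker sums examined, and chance gives about 1 in 20. Of these, 14 concerned PBS replicate 1 and 8 PBS replicate 4, and the part of the library's composition in them was not tested. The gap divided by the range is given after each name.

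PBS replicate 1 was far above the other PBS libraries in B cell genes, Fcer2a (0.911), Cd79a (0.908), Blnk (0.891) and Pax5 (0.889), and in the summed B cell (0.940), MHC class II (0.887) and macrophage and monocyte (0.831) markers. It was also highest for Scd1 (0.936), Chst3 (0.931), Hk2 (0.908), Ccne1 (0.898), Itgam (0.879), Ccnd1 (0.863) and Relb (0.855). PBS replicate 4 was lowest for S100a6 (0.989), Itgb7 (0.938), Lgals1 (0.899), S100a10 (0.889) and Socs1 (0.874), 4 of which rose with 3x, and highest for Rel (0.875), Lef1 (0.849) and Itgae (0.837). PBS replicate 3 was highest for Smad2 (0.893), Dusp5 (0.864) and the T cell marker sum (0.850), and PBS replicate 2 lowest for Ccr7 (0.961).

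In the 3x group, replicate 1 was lowest for the amino acid transporter gene Slc3a2 (0.971), Foxp1 (0.920), Klrd1 (0.847) and Pmaip1 (0.832). Replicate 2 was lowest for the Treg marker sum (0.950) and Rhog (0.855) and highest for Pak1 (0.841). Replicate 3 was highest for Slpi (0.915) and replicate 4 for Ikzf3 (0.868).

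The response to 3x was compared between mice given the MHC class II antibody and the isotype antibody by the interaction contrast in edgeR. It differed in 133 of 217 named genes and in 39% of all genes. Named genes were chosen partly by the size of these differences, so the shares are not comparable. The values that follow are log2 differences, block minus isotype. For genes that fell under isotype antibody, such as Fcer2a, Jchain and Scd1, a difference upwards is not by itself a larger response. In the receptor pathway Il2ra (0.36), Il2rb (0.24), Il2rg (0.17), Jak3 (0.30), Stat3 (0.31) and Ptpn6 (0.31) differed upwards, and Jak1 (−0.32) and Stat5b (−0.23) downwards. With 1 library left out, 4 to 6 genes of this list differed upwards, so not every call held. Of STAT5 targets, Pim2 (0.83), Osm (0.68), Ccnd3 (0.42), Ccnd2 (0.36) and Socs3 (0.31) differed upwards and Bcl2 (−0.53) downwards. Treg lineage genes differed downwards in Foxp3 (−0.26), Ikzf2 (−0.40), Ikzf4 (−0.45), Izumo1r (−0.33), Lrrc32 (−0.44) and Nrp1 (−0.31).

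Of the other named genes, those that differed by at least 1 are given next, chosen by that size. The calls are those of the fit to all libraries, and losses without 1 library are not given for each gene. They include Gzma (4.24), Klrd1 (2.40), Il12rb2 (2.33), Klrc1 (2.00), Gzmb (1.92), Nkg7 (1.84), Tbx21 (1.84), Prf1 (1.75), Klrk1 (1.64) and Zeb2 (1.58). They also include Ccr3 (1.56), Havcr2 (1.48), Il1r1 (1.45), Lag3 (1.28), Tnfrsf8 (1.22), Ccr2 (1.06) and Pdcd1 (1.01). Also upwards were Ifitm1 (3.69), Hspa1a (2.23), Anxa1 (1.94), Lgals3 (1.87), Spry2 (1.43), Ccnd1 (1.42) and Cdkn2a (1.26), with Ifit1 (−1.26) and Actn2 (−1.05) downwards. Genes of B cells, plasma cells and other cells stood at Fcer2a (6.34), Pax5 (3.97), Blnk (3.46), Cd79a (3.30), Jchain (3.29), Mzb1 (3.10), Prg2 (2.73) and Slpi (2.62), beside Scd1 (4.31) and Chst3 (3.47). Isotype PBS replicate 1 was the highest PBS library for Fcer2a, Pax5, Blnk, Cd79a, Scd1 and Chst3. Without it these differences were 4.05, 2.61, 2.68, 2.35, 2.73 and 2.16 in that order, whereas Jchain, Mzb1, Prg2 and Slpi stood at 3.27, 2.88, 2.60 and 2.35. In that fit the edgeR adjusted p was 0.1 for Pax5, at the threshold, and 0.096 for Chst3. The remaining 77 named genes differed by −0.92 to 0.92, 53 upwards and 24 downwards.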

How the results depend on the processing

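The counts over all tested genes stayed within 1.5 times, where run, under DESeq2, RLE scaling, totals alone, limma on FPKM, no CPM filter, all gene types, empty cells as 0 and thinned libraries, for 3x against PBS with 6991 (3399 higher, 3592 lower) from the 8 libraries alone to 8688 from all gene types. DESeq2 called 3830 and 3996, scaling by totals alone 3097 and 4763 and limma on log2(FPKM + 1) 3140 and 4527. A required log2 fold change of 1 left 1390 against PBS (334 higher, 1056 lower), 463 against WT IL-2 (47 and 416), 100 against H16R (15 and 85) and 722 in the interaction (653 and 69). Leaving out 1 library of the groups compared gave 7338 to 7851 genes against PBS, and 590 to 1501 against H16R (285 to 760 higher, 305 to 741 lower). Over any library of the fit, up to 7928 and 1760 passed, the latter without PBS replicate 4. The low end came without 3x replicate 1, and 3x replicate 4 or H16R replicate 4 left 791 (421 and 370) or 789 (381 and 408). Without PBS replicates 1 and 4 together, chosen after seeing the data, 3511 rose and 3613 fell.

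Counts of list members moved by over 1.5 times in 92 cases, the fold threshold included. Of 203 named genes called, 65 kept their call and direction in every alternative, the fold threshold included, and no named gene called in both reversed. A replicate block, on equal numbers in the labels, gave 3475 and 3532. The labels do not say what a number shares, and deviations of equal numbers correlated at 0.02 to 0.14 (different numbers −0.16 to 0.07), not all above 0.1. As a hint from the data, not the design, 7 of 8 libraries correlated best with their own number. Depth limits genes near 0.5 CPM in the smallest library.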
